A study of Brassica oleracea var. italica with 48 samples.

Results

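Leaves of broccoli (Brassica oleracea var. italica, wild type) that had spent 6 days without potassium were compared with leaves of potassium-fed plants of the same day. The comparison used 8 of the 48 libraries of the series, 4 of starved leaves and 4 of control leaves, lettered a to d in each group. All plants had grown as seedlings on MS plates for 6 days and then for 7 days in hydroponic medium that held 2 mM K2SO4, in long days (16 h light, 8 h dark). The starved plants were then moved to a medium free of potassium, and the controls were plants that were not moved. The move and the loss of potassium thus cannot be told apart, and the effect of starvation below stands for both. Potassium is the main inorganic cation of plant cells, where it sets turgor, drives stomatal movement and is needed for enzyme activity and for loading sugar into the phloem. It is mobile in the plant, so that shortage is known to draw it out of older leaves. Uptake by roots at low supply rests on transporters of the HAK family, and leaves meet the shortage through what the root delivers.

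The results are described over features whose ID begins with Bo and that reached at least 1 TPM (a share of reads per coding length, scaled to sum to 1000000 in each library) in at least 4 of the 8 libraries. This held for 23402 of the 59225 Bo features, and 20265 were listed at 0 in all 8 libraries. The files do not pair the IDs with gene names, and 0 of them matched a table of 53125 reference genes, so features are given by ID, and potassium transporters, salicylic acid genes and leaf markers were not analysed here. The tissue was therefore checked by likeness to other libraries of the series. Each of the 8 libraries had a Pearson r of 0.945 to 0.986 with the mean control leaf of days 1 and 3 and of 0.434 to 0.493 with the mean control root, across features, which are not independent replicates. Depth was nearly equal, with 18664588 to 20160203 whole reads behind the TPM of each of the 8 libraries. Library pairs had an r of 0.963 to 0.987 within controls, of 0.971 to 0.984 within starved leaves and of 0.947 to 0.969 between the groups. The first principal component held 41.6% of the variance and had all starved libraries on one side and all controls on the other, while on the second (25.5%) control c and starved c had the highest values. Those libraries had the lowest estimated quality of their groups (limma array weights of 0.533 for control c and 0.407 for starved c, against 0.769 to 1.88 in the others).

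By day 6 without potassium, 722 Bo features were higher and 659 were lower in starved leaves than in controls (limma on log2(TPM + 1), Benjamini-Hochberg adjusted p under 0.05). These 1381 features, called rises and falls below, were 5.90% of those tested, 3.09% for the rises and 2.82% for the falls. The rises were the larger changes. Their median log2 fold change was 1.02, with quartiles of 0.67 and 1.56, and it was at least 1 for 373 rises and at least 2 for 82. The falls had a median of -0.68, with quartiles of -0.87 and -0.56, and 102 of them had fallen by at least 1 and 3 by at least 2 on the log2 scale. A feature with a larger SE needs a larger change to be called, and the median SE was 0.187 for rises and 0.141 for falls. As these are bulk samples, fewer cells of a type and less RNA per cell cannot be told apart.

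**Figure D1:**
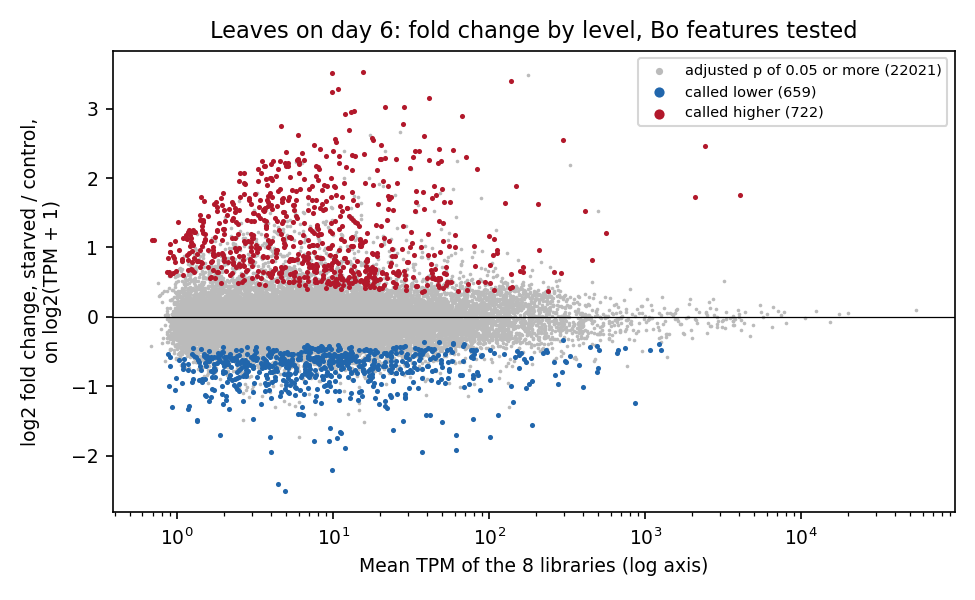
Log2 fold change of starved over control leaves on day 6 (y axis, from means of log2(TPM + 1), 4 libraries a group) against the mean TPM of the 8 libraries (log x axis), with 1 point for each of 23402 Bo features. The 722 rises (red) reach 3.53 and the 659 falls (blue) reach -2.51, and between them lie the features with an adjusted p of 0.05 or more (grey).

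The starved and control libraries did not overlap for 662 of the rises and 644 of the falls. Over all features tested this held for 3407 (14.6%), with starved leaves above for 5.93% and below for 8.63%. The calls were made from the same libraries, so their lack of overlap follows in large part from the choice and is no added support. The rises had a median of 3.89 TPM in controls, from a median of 69 reads a library, and of 10.5 TPM in starved leaves. For the falls the medians were 10.7 TPM, from 261 reads, and 6.01 TPM, and for all features 7.16 and 6.94 TPM. Choice by direction sets part of these levels. In controls 133 rises averaged less than 1 TPM, as did 415 features in all, which passed the filter mainly through their starved libraries. In starved leaves 55 falls averaged less than 1 TPM. None of the 1381 was listed at 0 in all 4 libraries of a group. Among features with at least 100 TPM in controls, 18 of 1318 had risen (1.37%) and 53 had fallen (4.02%), together 5.39% against 5.90% over all features. Of the 100 most abundant features in controls, 1 had risen and 3 had fallen, a share near that of all features, and 93 were also among the 100 most abundant in starved leaves. Both cuts use control values, which also enter the fold change, and this favours falls. Shares by the mean of the 8 libraries are given below with the tissue classes.

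The number of calls depended on the weight given to single libraries. With estimated array weights it was 2986, and with each library's trend with coding length removed 2172. It was 516 without control d, 545 without starved a, 676 without control b, 713 without starved d and 740 without starved b, and the falls alone numbered 1035 without control c and 407 without starved c. With libraries rescaled by medians of ratios the median over all features went from -0.08 to 0.00, and the share of rises among the calls went from 52.3 to 64.9% (1124 rises, 607 falls). In a fit with all 24 leaf libraries it was 66.7% (884 and 441). Other settings turned the balance, to 39.5% without control c (675 and 1035), 43.8% without both libraries lettered c (601 and 771) and 49.5% with the replicate block (795 and 810).

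The features that gained and lost the most TPM, among calls without overlap between the groups, had fold changes far apart in size. Bo6g104090, with a coding length of 255 bases, stood at 1233, 454, 713 and 584 TPM in control leaves a to d and at 3516, 2731, 3253 and 6852 TPM in starved leaves a to d. All starved libraries were above all controls, as the choice required. The feature rose by 2.46 on the log2 scale with an SE of 0.33 (limma, adjusted p = 0.00439). Roots of day 6 held 567 ± 117 TPM of it when fed and 3276 ± 986 TPM when starved (SD, n = 4 each), and there it rose by 2.49 with an SE of 0.26 (limma, adjusted p = 0.000160). The difference between the effects in leaves and roots was -0.03 with an SE of 0.46 (limma, adjusted p = 0.976). On day 1 control leaves held 338 ± 135 TPM of it and starved leaves 565 ± 208 TPM, and on day 3 the means were 468 ± 173 for controls against 1533 ± 391 TPM (SD, n = 4 each).

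Bo01499s040, with a coding length of 300 bases, had 1315, 1580, 1968 and 2075 TPM in control leaves a to d and 4880, 9581, 8403 and 2794 TPM in starved leaves. The groups did not overlap, as the choice required, and starved d was nearest to the controls. It rose by 1.75 with an SE of 0.34 (limma, adjusted p = 0.0185), and the call was lost in the fit with all 24 leaf libraries (limma, adjusted p = 0.0711) and without both libraries lettered c (limma, adjusted p = 0.0608). On the earlier days it ranged from 1884 to 19607 TPM in control leaves and from 2094 to 22743 TPM in starved ones, so its level in starved leaves on day 6 lay within the range of earlier controls.

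Of the falls, Bo3g023690 and Bo8g030240 lost the most TPM among those without overlap. Bo3g023690 had 1508, 1079, 1013 and 1233 TPM in control leaves a to d and 535, 502, 672 and 358 TPM in starved leaves. Every starved library was below every control, and the feature fell by 1.24, log2 scale, with an SE of 0.19 (limma, adjusted p = 0.00708). The 8 root libraries of day 6 held 0.133 to 1.42 TPM of it. Bo8g030240 also had its 4 starved libraries below its 4 controls, with 1456, 1663, 1282 and 1450 TPM in control leaves a to d and 1008, 1030, 961 and 1181 TPM in starved leaves. It fell by 0.48 with an SE of 0.10 (limma, adjusted p = 0.0245), a call that was lost without control b or d or starved a, b or c (limma, adjusted p from 0.0513 to 0.0743), with no filter (limma, adjusted p = 0.0639) and after rescaling (limma, adjusted p = 0.0514).

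**Figure D2:**
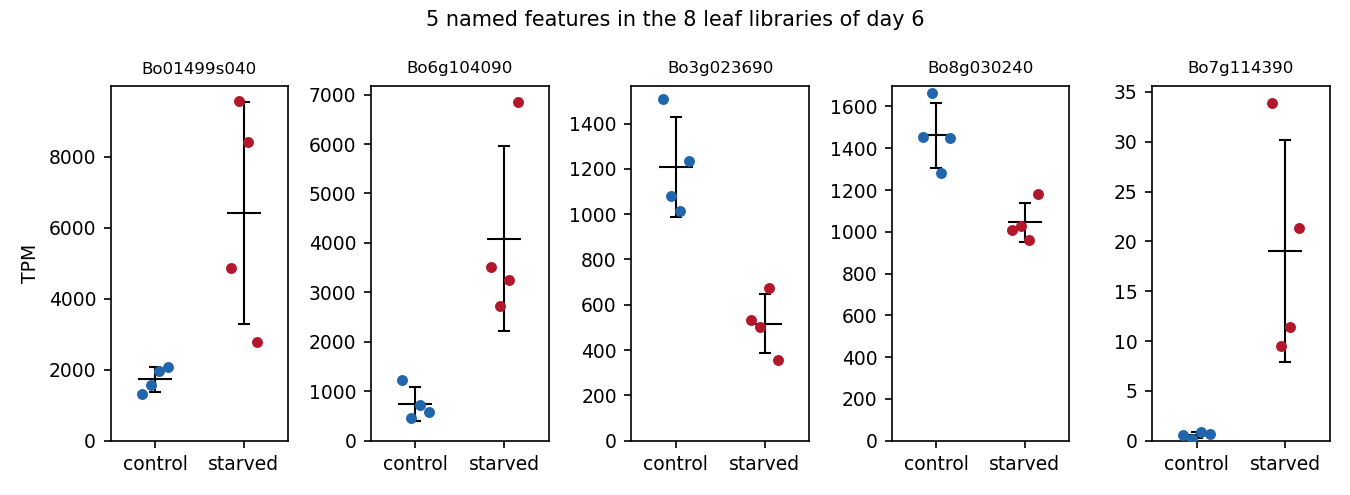
TPM (y axes, each from 0) of 5 features in the 4 control (blue) and 4 starved (red) leaf libraries of day 6, 1 point a library, with the mean as a horizontal mark and the SD as a bar. In each panel all starved libraries lie on one side of all controls, which the choice required for the first 4 features. For Bo7g114390 the filter required it, as all its controls were under 1 TPM. Bo7g114390, described below with the roots, rises from 0.575 to 19.0 TPM on average.

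The rises held many features that are mostly expressed in roots. Features were classed by control libraries of days 1 and 3 only, which the comparison of day 6 did not use. A feature was put in the root class where control roots exceeded control leaves by at least 2 in mean log2(TPM + 1), and in the leaf class where leaves exceeded roots by as much. In the root class 282 of 3338 features had risen (8.45%) and 106 had fallen (3.18%). In the leaf class 35 of 2231 had risen (1.57%) and 109 had fallen (4.89%), and of the 17833 features between them 405 had risen (2.27%) and 444 had fallen (2.49%). The root class thus gave 39.1% of the rises and 14.26% of all features tested, and the leaf class gave 16.5% of the falls and 9.53% of all features. The median log2 fold change was 0.00 over the root class, -0.08 over the features between and -0.16 over the leaf class.

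The root class had a lower median level in control leaves (4.54 TPM) than the features between (6.67 TPM) and the leaf class (44.2 TPM). The shares were therefore also taken by mean level over the 8 libraries. This level includes the starved values, so it does not remove the part of the filter, which low features could pass through starved leaves. Under 1 TPM, 9 of 37 features of the root class had risen (24.3%), 6 of 171 between (3.51%) and 0 of 1 in the leaf class. Among features with a mean of 1 to 10 TPM over the 8 libraries, 8.01% of the root class, 1.96% of the features between and 2.09% of the leaf class had risen. At 10 to 100 TPM these shares were 9.001, 2.76 and 1.57%. At 100 TPM or more they were 6.98 (3 of 43), 2.77 and 1.25%, and 6.98, 3.08 and 3.45% had fallen. Over the settings tried, 34.22 to 55.2% of the rises belonged to the root class.

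Most rises of the root class stayed below the level of control roots, which the class definition favours. Their median was 2.05 TPM in control leaves and 7.57 TPM in starved leaves, against 32.0 TPM in control roots of day 6, and 264 of the 282 stood higher in control roots than in starved leaves, while 18 did not. The 3338 features of the root class together held 3.89 ± 0.51% of the TPM of control leaves and 4.15 ± 0.38% of that of starved leaves (SD, n = 4 each), with controls from 3.46 to 4.62% and starved leaves from 3.76 to 4.62% (exact two-sided permutation test, p = 0.429, adjusted over 8 measures p = 0.588). The leaf class held 62.4 ± 1.30% and 61.5 ± 0.928% (exact permutation test, p = 0.286, adjusted p = 0.571). Both sums overlapped between the groups. The falls of the leaf class went from a median of 32.2 to 19.8 TPM and stood at 0.597 TPM in control roots.

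**Figure D3:**
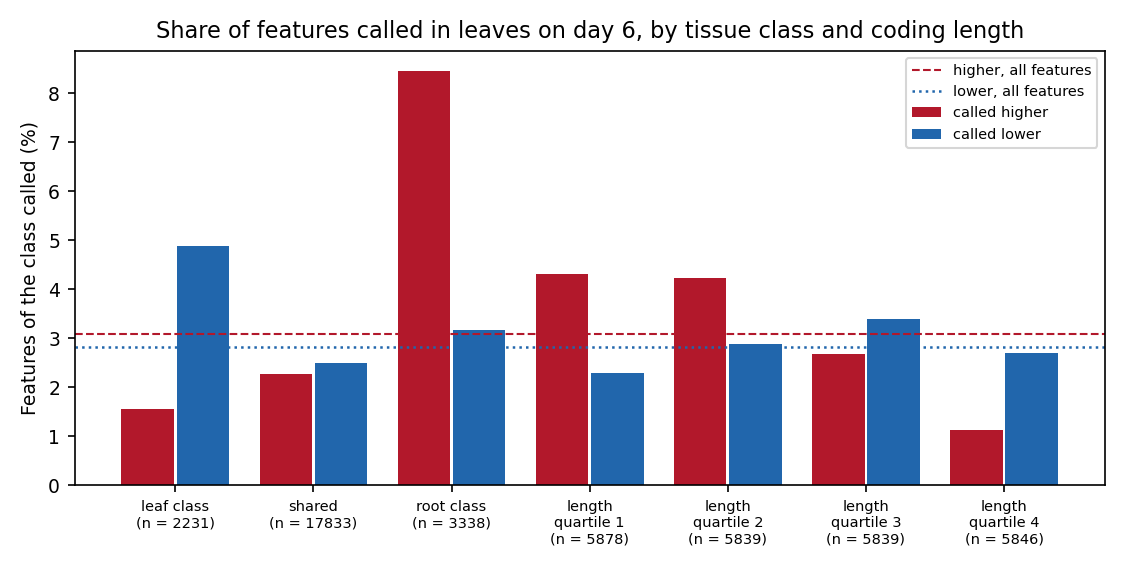
Share of the tested Bo features (y axis, percent) called higher (red) or lower (blue) in starved leaves on day 6, by tissue class and by quartile of coding length, with the number of features under each class. The dashed and dotted lines give the shares over all features, 3.09% for rises and 2.82% for falls. The root class shows the highest share of rises (8.45%) and the leaf class the highest share of falls (4.89%).

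Coding length moved with the direction of the calls. The median coding length was 807 bases for rises, 1110 bases for falls and 1062 bases for all features. In the shortest quartile, up to 630 bases, 4.30% of features had risen and 2.30% had fallen, and in the longest, above 1617 bases, the shares were 1.13 and 2.703%. Libraries differed in the same measure. The Spearman rho of a library's deviation from the mean of the 8 and coding length was 0.072, 0.322, -0.229 and 0.299 in controls a to d and 0.048, 0.041, -0.455 and -0.051 in starved leaves a to d, with overlapping groups (exact permutation test, p = 0.229, adjusted p = 0.571). With each library's trend with length removed, 1128 features were higher and 1044 lower, and the root class gave 34.8% of the rises. Within the root class, 9.57% of the shortest and 4.99% of the longest quartile had risen, and in the features between the tissue classes 3.48 and 0.599%. The part of length in the calls was not tested further.

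Each library moved in the direction of the others when measured over features called without it. The filter had used all 8 libraries, so the library left out still took part in which features were tested. For the rises under 1 TPM in controls, which passed mainly through starved libraries, this partly set the sign in a starved library. For each of the 8 libraries the calls were made again without it, and its own log2 fold change was taken over those calls, against the mean of the other group, whose libraries had taken part in the choice. The starved libraries a to d gave medians of 1.58, 0.94, 0.74 and 1.23 over the rises and of -0.73, -0.73, -0.76 and -0.68 over the falls. Starved a moved most and starved c least over the rises, and the 4 were close together over the falls. For control libraries a to d, set against the starved mean, the medians were 0.54, 1.38, 0.91 and 1.33 over the rises and -0.68, -0.60, -0.32 and -0.89 over the falls. Control a was thus nearest to starved leaves over the rises and control c over the falls. In starved libraries 95.8 to 100% of the rises and 98.6 to 99.6% of the falls had the sign of the other libraries, and in controls the lowest shares were 79.7% of 1017 rises in control a and 90.9% of 1035 falls in control c. The median SD of log2(TPM + 1) over all features was 0.198 in controls and 0.198 in starved leaves.

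**Figure D4:**
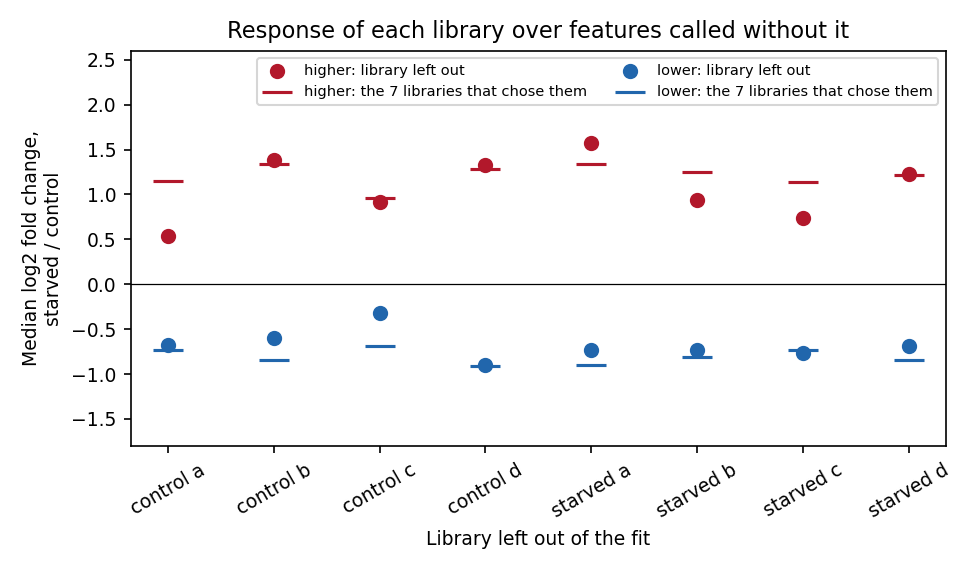
Median log2 fold change (y axis) over the features called without a library, for each of the 8 libraries (x axis). Dots give the library left out and horizontal marks the 7 libraries that made the calls, after a filter over all 8. Red stands for features called higher and blue for features called lower. All dots lie on the side of the marks, from 0.54 to 1.58 for rises and from -0.32 to -0.89 for falls.

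The features that differed on day 6 were followed back to days 1 and 3, whose libraries took no part in choosing them. Levels are given as the median over features of log2(TPM + 1) minus the mean of the control leaves of days 1 and 3. On day 3 the 722 rises stood at 0.27 to 0.56 in the 4 starved libraries and at -0.03 to 0.21 in the 4 controls, without overlap. On day 1 the ranges were -0.25 to 0.13 and -0.22 to -0.03, and the groups overlapped. On day 6, where the choice fixed the gap, starved leaves stood at 0.77 to 1.04 and controls at -0.16 to 0.10. Over the rises, controls of day 6 averaged -0.08, where they averaged 0.11 over all features tested. Starved leaves averaged 0.88 over the rises and 0.04 over all features. Most of the distance was thus in starved leaves and a smaller part in controls, in libraries that chose the features.

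The falls moved less in starved leaves than the rises did. Control leaves of day 6 stood at 0.20 to 0.37 and starved leaves at -0.47 to -0.33, on both sides of the earlier controls. Over all features tested the control libraries of day 6 stood at -0.02 to 0.16 and the starved ones at -0.09 to 0.10. On day 3 the falls were at -0.25 to -0.04 in starved leaves and at -0.32 to 0.21 in controls, and these groups overlapped. On day 6 the falls averaged 0.30 in controls and -0.38 in starved leaves. Against the level of all features, part of the distance was thus in controls for rises and falls alike, in libraries that chose the features.

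**Figure D5:**
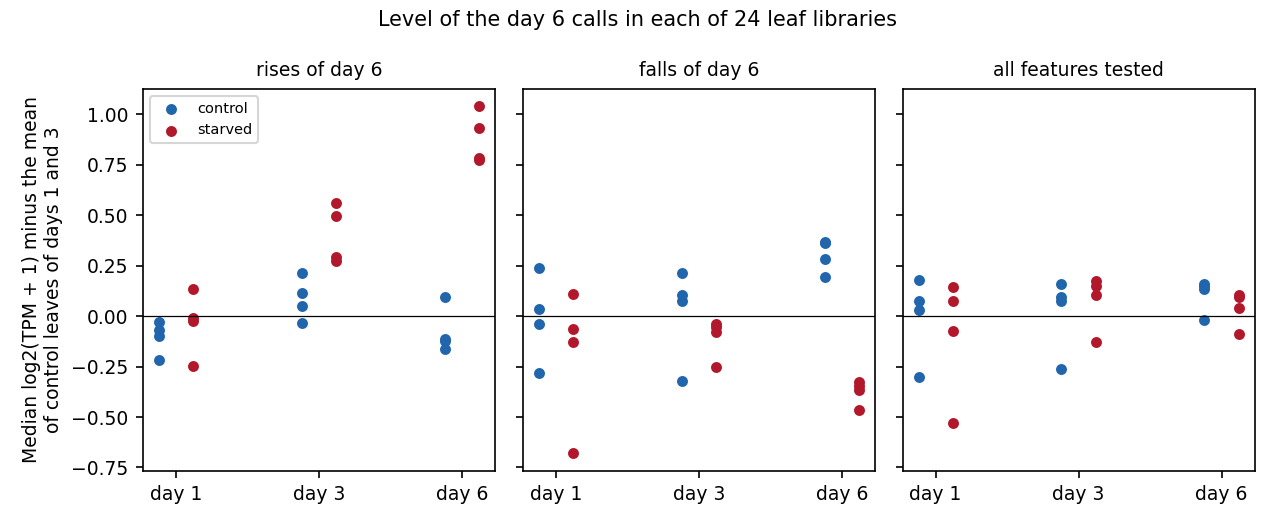
Median over the 722 rises, the 659 falls and all 23402 tested features of log2(TPM + 1) minus the mean of the control leaves of days 1 and 3 (y axis), by day (x axis), with 1 point for each of 24 leaf libraries (controls blue, starved red). Starved leaves stand above controls over the rises on day 3 (0.27 to 0.56 against -0.03 to 0.21), and on day 6 the falls lie above the earlier controls in control leaves and below them in starved leaves.

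Feature by feature, the 4 starved libraries of day 3 lay above the 4 controls for 131 of the 722 rises (18.1%) and below them for 0, against 1.97 and 1.24% of all features tested. For the falls the shares on day 3 were 0 above and 31 of 659 below (4.70%). On day 1 they were 2.63% above and 0.693% below for the rises, 0.303 and 2.12% for the falls and 0.735 and 0.731% for all features. In fits of their own 8 libraries limma called 0 of 23272 features on day 3 and 0 of 23013 on day 1 (0.00% each), and 1012 and 345 had an unadjusted p under 0.05. These days held the leaf libraries of lowest estimated quality. Array weights over 24 libraries were 0.185 and 0.290 for control a and starved a of day 3. They were 0.169 and 0.090 for control b and starved d of day 1, against 0.566 or more on day 6. The lack of calls thus does not show a lack of response. The effect of starvation on day 6 differed from that on day 1 for 129 of 24568 features (0.525%), of which 117 were more positive on day 6 (0.476%) and 12 more negative (0.0488%) (limma, adjusted p under 0.05). With a pseudocount of 0.1 the number was 56, and without control a of day 6 it was 310. It was 65 to 84 without any one of control b, c or d or starved a or d of day 6, or control a, c or d or starved b of day 1. Between days 6 and 3 the same test called 0 of 24487 features (0.00%), with 1957 at an unadjusted p under 0.05. Without starved a of day 3, 3911 were at an unadjusted p under 0.05. The number of calls was 83 with the replicate block, 9 with all 24 leaf libraries and 6 with no filter. It was 0 to 16 without single libraries (16 without starved b of day 3, 7 without control a of day 6, 1 without starved b of day 6).

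Roots of the same day, from other libraries of the series, shared part of the calls in either direction. In roots limma called 4080 of 27427 features (14.9%), 2307 higher (8.41%) and 1773 lower (6.46%). Of the 722 rises in leaves, 119 were called lower in roots and 64 higher, 16.5 and 8.86% of the rises, where 4.85 and 4.54% of all features tested in leaves were. The 4 starved root libraries lay below the 4 control roots for 143 of the rises (19.8%) and above them for 79 (10.9%), against 7.49 and 7.06% of all features. The 119 were 6.71% of the falls in roots and the 64 were 2.77% of the rises there. Of the 659 falls in leaves, 68 were lower in roots (10.32%) and 45 higher (6.83%). The 119 features that were higher in leaves and lower in roots had medians of 2.01 TPM in control leaves and 7.79 TPM in starved leaves, and of 30.5 and 13.9 TPM in control and starved roots. The root class held 87 of them. The 64 features that were higher in both had medians of 1.89 and 7.59 TPM in leaves and of 9.43 and 24.5 TPM in roots, and 26 of them were of the root class. All features are not a matched background for these shares, as the root class gave 39.1% of the rises and 14.26% of all features. Of the 3338 features of the root class, 411 were called lower in roots and 295 higher. Among its 282 rises in leaves these numbers were 87 and 26, a larger share lower in roots than in the class and a similar share higher.

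The test of the difference between the effects in leaves and roots on day 6 called 4333 of 29750 features (14.6%), 1801 with a more positive effect in leaves (6.05%) and 2532 with a more negative one (8.51%). Of the 23402 features that passed the filter in leaves it called 2543 (10.9%), and the other 1790 calls were of features that passed mainly through roots. Bo7g114390, of the root class, had the most positive difference among called features with a mean of at least 1 TPM. It stood at 0.590, 0.216, 0.861 and 0.633 TPM in control leaves a to d and at 33.9, 9.48, 11.4 and 21.3 TPM in starved leaves, while roots held 117 ± 7.55 TPM of it when fed and 28.3 ± 4.14 TPM when starved (SD, n = 4 each). Leaf and root levels thus came near each other in starved plants, and its change in leaves exceeded that in roots by 5.53 on the log2 scale, with an SE of 0.39 (limma, adjusted p = 1.08e-07). In leaves of day 3 it stood at 1.15 to 3.74 TPM in controls and 3.33 to 15.6 TPM in starved plants, with starved a and d below the highest control, c. For Bo9g005670 the difference was 4.73, with an SE of 0.42 (limma, adjusted p = 1.14e-06) and a fall in roots from 105 ± 15.2 to 5.04 ± 1.81 TPM, while its leaf libraries held 0.426 to 3.52 TPM in controls and 1.51 to 3.14 TPM in starved plants. Its change was 0.56 in leaves, with an SE of 0.32 (limma, adjusted p = 0.301), and -4.18 in roots, with an SE of 0.23. Most of the difference was thus its fall in roots. Bo8g076240 and Bo1g021930 had the most negative differences, of -5.22 and -5.07 with SE of 0.30 and 0.31. They did not pass the filter in leaves, so these values restate their rise in roots of 5.22 and 5.06 and test nothing in leaves. Both rose in roots, from 1.51 to 98.2 and from 3.18 to 148 TPM on average, and in the 8 leaf libraries they had 0 reads apart from 1 read of Bo1g021930 in control b.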

How the data were processed

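Column-purified, DNase-treated RNA was sequenced with DNBseq chemistry, per the labels' protocols. FastQC 0.11.9, cutadapt 4.1, STAR 2.7.10a and DESeq2 appear in the submitters' processing notes, without role or order. No source used here gives the genome build, annotation, counting tool or use of strand, so reads of near-identical copies, overlapping genes and antisense genes cannot be told apart. The authors deposited 1 table of TPM for 60586 features in 48 libraries. A TPM value depends on all other features of its library. Values of a feature were whole multiples of a common step. This gave whole reads for each of 44911 features seen in at least 2 libraries (largest deviation 0.000112 reads, tolerance 0.05). The steps gave feature lengths only relative to each other, and their scale was set to bring most lengths to multiples of 3. At that scale 99.8% of Bo features had such lengths, called coding lengths. Lengths in bases rest on this choice of scale.

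The 8 leaf libraries of day 6 were tested with limma 3.58.1 in R 4.3.3 (lmFit, eBayes with a trend) on log2(TPM + 1), which understates the change of low features. The filter (1 TPM or more in 4 or more of the 8) left 23498 features, 96 of them ENSRNA features. The fit keeps to these 8 libraries because others of days 1 and 3 had low estimated quality. Differences of effects were tested over 16 libraries. Library measures were compared with exact permutation tests, whose smallest p with 4 against 4 is 0.0286. On simulated data for this comparison (23441 features) the share called was 77.8% at 2-fold, 99% at 4-fold and 0.0473% where nothing was changed. Changed features were drawn from those averaging 100 reads or more, while the rises had a median of 69 reads in controls. Each feature was simulated independently, without the shifts along coding length that the libraries show. These shares thus do not carry over to the real calls. Whether replicates were separate plants or cultures is not labelled, and p-values then reflect only the spread between samples, which may be technical. All pairs within a group differed by more than sampling noise (chi-square per degree of freedom at least 11.9).

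Named by rule were the 2 rises and 2 falls with the largest difference of mean TPM among calls without overlap, and the 2 most positive and 2 most negative differences of effects between leaves and roots among calls with a mean of at least 1 TPM. The features, classes and lists were chosen with earlier results of these data known. Alternatives were other fits, filters, pseudocounts and scalings, voom on the recovered reads, a replicate block and leaving out libraries. The root class share of rises, the leaf class share of falls the fit without both libraries lettered c and the share of features with an s in the ID without Bo01499s040 were added after seeing the data. Python 3.11.15 with numpy 2.4.6, pandas 2.3.3 and scipy 1.17.1 was used.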

Additional observations from a re-analysis of the deposited data

Results flagged for a closer look

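A test of the difference between tissues or days was past its threshold for 5 named features, of which 3 had reads to compare in leaves. In leaves against roots on day 6 the differences of log2 fold changes were 5.53 for Bo7g114390, 4.73 for Bo9g005670, -5.22 for Bo8g076240, -5.07 for Bo1g021930 and -1.20 for Bo3g023690 (limma, adjusted p from 1.52e-08 to 0.0136). Bo8g076240 and Bo1g021930 had no more than 1 read in any leaf library of day 6, so their differences only restate the rise in roots. Bo3g023690 stood near 0 TPM in roots, where it had little room to fall. Bo9g005670 was not called in leaves, and most of its difference was its fall in roots. For Bo7g114390 the effect in leaves also differed between days 6 and 1, by 3.51 (limma, SE 0.43, adjusted p = 0.00106). Over all features such differences were called for 4333 between leaves and roots on day 6, of which 2543 passed the filter in leaves, and for 129 between days 6 and 1 in leaves.

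ENSRNA features were no part of the comparison described. Of the 96 that passed the filter, 14 (14.6%) were higher and 0 lower in starved leaves (limma, adjusted p under 0.05), against 3.09 and 2.82% of the Bo features. They held 0.0738, 0.0961, 0.0891 and 0.0920% of the TPM in control leaves a to d and 0.201, 0.288, 0.319 and 0.148% in starved leaves, so the groups did not overlap (exact permutation test, p = 0.0286, the smallest possible, adjusted over 8 measures p = 0.114).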

How the results depend on the processing

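Against 1381 calls, 722 higher and 659 lower, array weights gave 2986 (1492 and 1494), removal of the length trend 2172 (1128 and 1044) and an added minimum of 1 for the log2 fold change 475 (373 and 102). Rescaling gave 1124 rises, no filter gave 381 falls, and leaving out 1 library gave 516 to 1710 calls, 310 to 1017 rises and 185 to 1035 falls. Without both libraries lettered c there were 1372 calls, of which 907 were shared with the 1381. The fit of all 24 leaf libraries shared 931 and voom on the recovered reads 1259. Whether the letters pair the samples was not settled. The correlation of deviations was over 0.1 for 1 of 4 letters only (-0.26 to 0.41, with 0.41 for letter c). The replicate block gave 1605 calls. For the difference between days 6 and 3 the block gave 83 calls, all 24 libraries gave 9, no filter gave 6 and single libraries left out gave 0 to 16. Between days 6 and 1 a pseudocount of 0.1 gave 56 and single libraries left out gave 65 to 310. Between leaves and roots the latter gave 3498 to 4425.

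The root class gave 39.1% of the rises, and 42.9% with all 24 leaf libraries, 34.7% after rescaling, 35.4% with voom, 34.8% without the length trend, 43.5% with the replicate block, 55.2% with the added minimum fold change and 34.22 to 50.0% without single libraries. The leaf class gave 16.5% of the falls, 13.3% after rescaling and 15.4 to 19.1% without single libraries. The difference in the number of features at 1 TPM or more, of -177, ranged from -352 to 47.4 without single libraries, and changed sign without starved c. The 7 other library measures kept their direction when single libraries were left out. All 4 named differences between leaves and roots, Bo6g104090 and Bo3g023690 kept direction and call under every setting tried. The causes were not tested. TPM shows shares of a library, and low features rest on few reads, with a median of 9.25 reads a control library for rises under 1 TPM in controls.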

Other observations

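Of 11479 pairs of consecutive IDs with both members tested, both had risen in 23, both had fallen in 14 and the members had moved in opposite directions in 12. A neighbour of a rise had itself risen in 6.59% of cases, where 3.04% of all members of pairs had, and a neighbour of a fall had fallen in 4.21%, where 2.90% had. No run of 3 or more consecutive IDs was found in either direction. Neighbouring copies of a gene could share reads in the authors' counting.

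Calls were found under all 9 numbers that follow Bo in the ID, with rises from 2.15% (number 1) to 3.71% (number 4) of features and falls from 2.30% (number 9) to 3.88% (number 6). Features with an s in the ID were higher in 28 of 720 cases (3.89%) and lower in 18 (2.50%), near the 3.09 and 2.82% of all features. They held 2.25 ± 0.0758% of the TPM in control leaves and 2.97 ± 0.490% in starved leaves (SD, n = 4 each) without overlap (exact permutation test, p = 0.0286, the smallest possible, adjusted over 8 measures p = 0.114). Much of this gap was 1 feature. Without Bo01499s040 the shares were 2.08 ± 0.0780% (1.99 to 2.15%) and 2.33 ± 0.178% (2.14 to 2.51%), and the groups overlapped.

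Few features changed with leaf age between days 1 and 3 in controls by at least 1 on the log2 scale. This is a cut by size without a test. The means include control b of day 1 and control a of day 3, of low estimated quality (array weights of 0.169 and 0.185). Of 119 that were higher on day 3, 15 (12.6%) were higher and 4 (3.36%) lower in starved leaves on day 6, and of 38 that were lower on day 3, 0 and 2 (5.26%), against 3.09 and 2.82% of all features. The number of Bo features at 1 TPM or more was 22598 to 23627 in controls and 22273 to 23282 in starved leaves, and the 10 most abundant features held 14.9 to 16.8% and 15.1 to 17.9% of the TPM (exact permutation tests, p = 0.629 and 0.514, adjusted p = 0.629 and 0.588).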
